A study of Mus musculus with 57 samples.

Results

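RM1 is a mouse prostate cancer line, used here as single cells recovered from bone, and the cells described are the 17 of 57 in which Mki67, the gene of the proliferation marker Ki-67, was at 0 while the tumour label eCFP, a cyan fluorescent protein gene, was at least 100 normalised reads. They were chosen by these 2 measured values, so neither is a finding. Among the 17, 10 were sorted as dormant because they had kept the membrane dye PKH26, which is diluted at each division, and 7 as proliferating because they had lost it. Setting these groups against each other asks what accompanies dye retention when the cells of both groups lack Mki67 transcripts at the time of sorting.

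The RM1536 cells carried eCFP and luciferase (luc2), were stained with PKH26 and were injected into the heart of C57BL/6 mice. They were sorted from bone marrow into plates after a mean of about 16 days, and each deposited sample is the full-length RNA-seq library of a single cell. The dormant Mki67-negative cells came from 3 mice, with 2 cells from mouse 452 (day 16), 2 from mouse 1184 (day 15) and 6 from mouse 1185 (day 14). The proliferating Mki67-negative cells came from 4 mice, with 1 cell from mouse 268 (day 18), 1 from mouse 288 (day 13), 2 from mouse 369 (day 17) and 3 from mouse 452. All groups share the injected line, the label genes and the strain of the host, and no mouse age is given. Mouse 452 alone gave Mki67-negative cells of both states, and the labels' protocols describe library batches of 1 state each, so mouse, batch, day and state cannot be told apart.

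Mki67 was at 0 in 10 of 22 labelled dormant cells (45.5%, exact Clopper-Pearson 95% interval 24.4% to 67.8%) and in 7 of 29 labelled proliferating cells (24.1%, 10.3% to 43.5%), intervals that cover counting error only. The nearest cells outside the limit had Mki67 at 0.860, 5.88 and 6.93 normalised reads, resting on 1, 2 and 4 reads. The lowest eCFP inside the limit was 327, and the highest below it, among cells with Mki67 at 0, was 3.44. Of the other labelled cells, 12 dormant and 22 proliferating cells were Mki67-positive.

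The tumour identity of the 17 cells was checked on genes that the choice did not use. Krt8, an epithelial keratin gene, was found in every cell, at 560 to 15246 normalised reads (median 3813) in dormant and 383 to 6599 (median 3543) in proliferating cells. Krt18, the other epithelial marker, was above 0 in every dormant cell (481 to 7215) but not in every proliferating cell. It was at 0 in proliferating cells 6, 20 and 66, at 8.35 in cell 40, and at 364 to 5834 in the others. Luc2 was present in every cell, at 2306 to 26410 in dormant and 1994 to 16708 in proliferating cells. It is carried by the same line as eCFP, so its presence is not independent of the choice by eCFP. Ptprc, the pan-leukocyte surface gene CD45, was at 0 in 16 of the 17. Host transcripts were nevertheless high in 2 cells. The first was dormant cell 105 of mouse 1184, with Ptprc at 915, Lyz2, the lysozyme gene of myeloid cells, at 95205, and all 24 measured pan-leukocyte genes above 0, beside eCFP at 736. The other dormant cells had 2 to 13 of these genes above 0 and the proliferating cells 1 to 9. The second was proliferating cell 66 of mouse 452, which had 9 of them and the lowest eCFP of all members, 327. Its B lymphocyte gene Cd79b was at 1486, Ebf1 at 178 and the MHC class II genes Cd74, H2-Aa and H2-Ab1 at 395, 313 and 206. Summed over 10 measured B and T lymphocyte genes it had 4985, with 7 above 0, against at most 272 and 2 genes in the other members.

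Depth and detection were uneven. Recovered reads ranged from 945351 to 5306777 per cell. Genes above 0 numbered 2982 to 9271 in dormant cells (median 7857.5) and 2397 to 7647 in proliferating cells (median 6018). Over mouse means these were 7266 ± 1686 (SD, n = 3) and 5276 ± 1966 (SD, n = 4) genes. The two-sided exact permutation test over mouse means gave p = 0.229, and the smallest p that 35 arrangements can give is 0.0286. Log2 recovered reads differed by 0.52 (dormant minus proliferating), with p = 0.229 by the same exact permutation test. Spike-in rows above 0 numbered 25 to 33 of 118 in dormant cells, 43 to 48 in proliferating cells 20, 40 and 41 of mice 288 and 369, and 21 to 27 in the other proliferating cells. Results that rest on these 3 cells, on cells 105 and 66, or on the cells with fewest genes (dormant 51 and proliferating 6) are given with and without them where the value moved most.

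**Figure D1:**
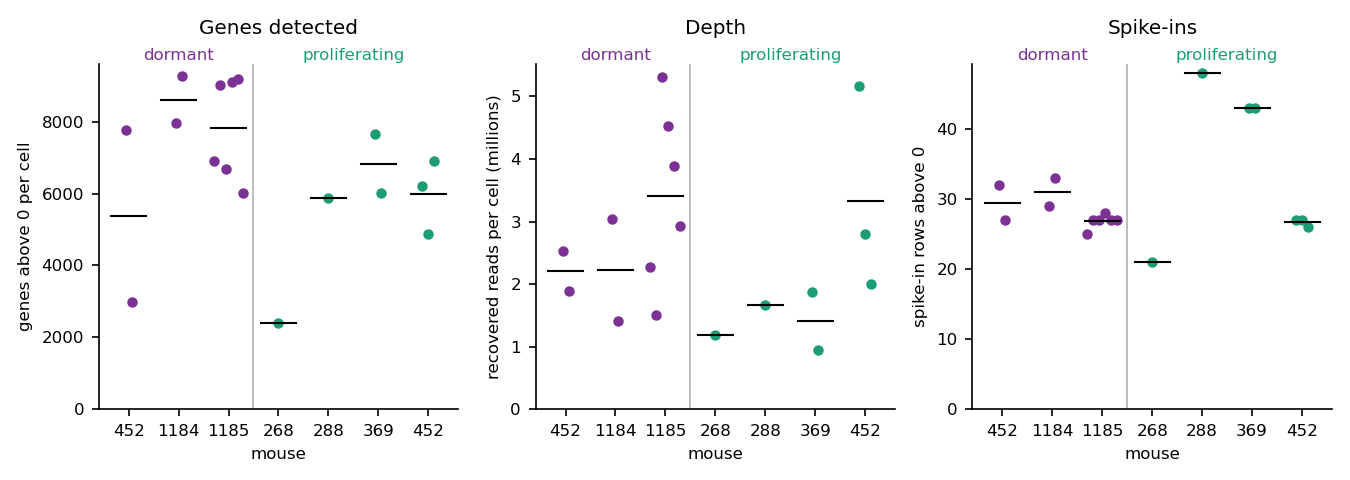
Genes above 0, recovered reads and spike-in rows above 0 for each of the 17 Mki67-negative cells (points), by state and mouse, with the mouse mean as a line. Dormant cell 51 (2982 genes) and proliferating cell 6 (2397 genes) lie far below the others of their state, and the 3 cells of mice 288 and 369 have 43 to 48 spike-in rows.

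Ki-67 protein and its transcript are made in cycling cells and decay after exit from the cycle, so a cell without the transcript may be resting, in early G1 or poorly sampled. Late mitotic genes such as those of cyclin B and survivin peak before division, while replication genes peak earlier. In disseminated tumour cells, dormancy is a lasting arrest, often described together with stress signalling, TGF-beta and TAM receptor signals (Axl, Mertk) and the surrounding matrix.

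The cells that lacked Mki67 were not uniformly without cycle transcripts. Top2a, Cdk1 or Ccnb1 (the genes of topoisomerase II alpha, the mitotic kinase and cyclin B1) were found, at least singly, in all 10 dormant and all 7 proliferating cells. Of 52 measured G2/M and mitosis genes, 10 to 37 (median 25.5) were above 0 in dormant and 5 to 46 (median 26) in proliferating cells, against medians of 47.5 in dormant and 48.5 in proliferating Mki67-positive cells. Per cell the mean log2(value + 1) over these genes was 1.18 to 4.52 in dormant Mki67-negative cells and 0.29 to 6.45 in proliferating ones. The proliferating cells fell on both sides of the dormant range, with cell 6 below it and cells 20, 40 and 41 above it.

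**Figure D2:**
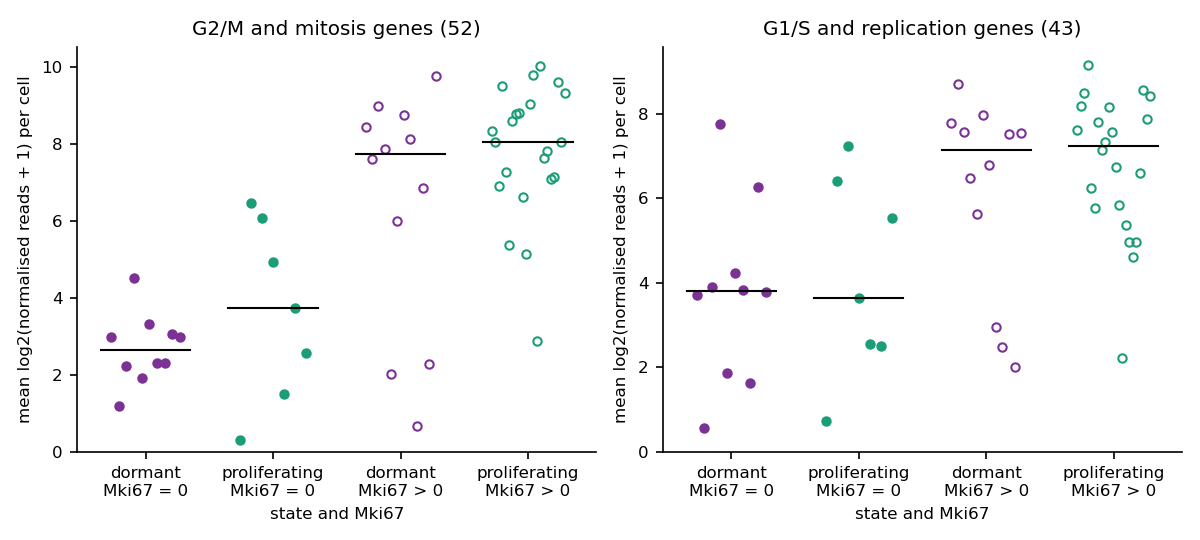
Mean log2(normalised reads + 1) per cell over 52 G2/M and mitosis genes (left) and 43 G1/S and replication genes (right), for dormant and proliferating cells with Mki67 at 0 (filled) and above 0 (open), with the median of each class as a line. Dormant Mki67-negative cells lie between 1.18 and 4.52 for G2/M genes, and proliferating ones spread from 0.29 to 6.45.

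The late mitotic genes had low values in dormant cells and high values in some proliferating cells. Cenpe, the gene of a kinetochore motor (chromosome 3, 135212537 to 135273611, GRCm38), was at 0 in 7 of 10 dormant cells and at most 2.80 normalised reads in the other 3, while proliferating cells had 0 to 766 (median 120). Its mouse means were 0.65 ± 0.33 for dormant (SD over 3 mice) and 5.53 ± 2.79 for proliferating cells (SD over 4 mice) on the log2(value + 1) scale. The difference was −4.88 (SE 2.05). Tacc3, a spindle protein gene, differed by −4.61 (SE 2.14). Without the cells with high spike-in counts Cenpe differed by −2.96 and Tacc3 by −1.44.

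Other mitotic genes depended on those 3 cells. Birc5 (survivin) was at 0 to 17.3 in dormant cells and at 395 to 1496 in proliferating cells 20, 40 and 41, with 0 in the other 4 proliferating cells, and its difference of −4.24 (SE 2.24) became 0.68 without the 3. Ccnb2 (cyclin B2) had 456 to 582 in the same 3 cells, 0 in the other 4 and 0 to 115 in dormant cells, and its difference of −2.89 became 1.61. Ccnb1 was at 0 to 168 in dormant and 0 to 992 in proliferating cells, with a difference of −4.04 (SE 2.37) and −0.46 without the 3. Cdk1 was detected in 10 of 10 dormant cells (100 to 785) and 5 of 7 proliferating cells (0 to 838). Of the list's tested genes, 37 of 48 had a negative difference, with a median of −1.07 beside 1.20 over all genes, and 2 were lower at an unadjusted p under 0.05. Relative to all genes the list's median was −2.27, and −0.36 without the 3 cells. The 41 G1/S and replication genes had a median of −0.42, with 19 positive and none past that limit. An exception to the direction was Anln, the gene of the cytokinesis protein anillin, at 0 to 1692 (median 367) in dormant cells and at 0 in 5 of 7 proliferating cells, a difference of 4.78 (SE 2.47).

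The test across all genes found no gene past its threshold. Differences are dormant minus proliferating, fitted by limma on mouse means of log2(value + 1), so cells at 0 lower a mean, and a difference mixes level and detection. Adjusted over 10622 genes, p fell below 0.05 for 0 (0%), the minimum being 0.510. Before adjustment, p was under 0.05 for 988 genes with higher dormant values (9.30%) and for 20 with lower ones (0.188%). The median over all genes was 1.20, and 77.9% of genes had a positive difference. Within mouse 452, which alone holds Mki67-negative cells of both states, the median over all genes was −0.13 and 38.2% of genes had a positive difference. The dormant side of that mouse was cells 50 and 51, with 7765 and 2982 genes above 0. No value within mouse 452 was computed without cell 51. With the number of genes detected as a covariate the median was 0.14, with 391 higher and 199 lower genes at the same limit, and the part of detection in the positive differences was not tested further. By edgeR, fitted to the recovered reads, 0 genes were called, and p before adjustment was under 0.05 for 876 higher and 54 lower genes. DESeq2 called 145, of which 135 were higher and 10 lower. Counts of named groups are therefore read against the median of 1.20 and the shares of 9.30% and 0.188%.

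The smallest p belonged to Calu, the gene of calumenin, a calcium-binding protein of the secretory pathway (chromosome 6, 29348069 to 29377110). It was at 1752 to 17104 normalised reads (median 8164) in dormant and at 363 to 5806 (median 1446) in proliferating cells. Mouse means were 12.84 ± 0.17 (SD, n = 3) against 10.06 ± 1.24 (SD, n = 4) on the log2(value + 1) scale, a difference of 2.78 (SE 0.60, limma adjusted p = 0.510). The difference was 2.26 without mouse 268, 3.00 without cell 105 and 2.86 without the 3 cells with high spike-in counts. Calu passed an adjusted p of 0.05 in 4 of the alternative fits named in the closing section.

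Sqstm1, the gene of the autophagy receptor p62 (chromosome 11, 50199366 to 50210827), was at 11769 to 33993 (median 16127) in dormant and 871 to 10904 (median 7094) in proliferating cells. Its mouse means were 14.01 ± 0.31 in dormant (SD over 3 mice) against 12.29 ± 1.09 in proliferating cells (SD over 4 mice), with a difference of 1.72 (SE 0.45, limma adjusted p = 0.521). Prdx1, the gene of the antioxidant enzyme peroxiredoxin 1, was at 8483 to 30611 (median 11518) in dormant and 4140 to 14433 (median 5575) in proliferating cells, a difference of 1.19 (SE 0.33). The highest dormant Prdx1 value was that of cell 105, and the next was 13343, in cell 51. The 2 proliferating cells that reached dormant values for Prdx1 were cells 66 and 67 of mouse 452.

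Other leading genes were low or at 0 in proliferating cells, a pattern that the choice of genes by p and by detection in the higher state largely fixes. Rpap2, the gene of an RNA polymerase II phosphatase, was above 0 in 9 of 10 dormant cells (up to 1103) and in 0 of 7 proliferating cells. Glipr2 (9 and 0 cells) and Tmem35b (9 and 0 cells) had the same pattern at up to 435 and 95.4. Dhrs9, a retinol dehydrogenase gene, was above 0 in 9 dormant cells (up to 1679) and in 2 proliferating cells, at 1.39 and 10.9. Cpne1 (copine 1), Abraxas1 (a subunit of a BRCA1 complex) and Ilvbl were above 0 in 9, 7 and 9 dormant cells and in 2, 1 and 1 proliferating cells, where they did not exceed 4.35. The fitted differences of these genes, from 5.58 for Tmem35b to 7.33 for Dhrs9, depend on the pseudocount because proliferating cells were at or near 0. Gm10925, a copy of a mitochondrial gene in the nuclear genome, also led (3.58, SE 0.92), and its reads cannot be told apart from mitochondrial transcripts.

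**Figure D3:**
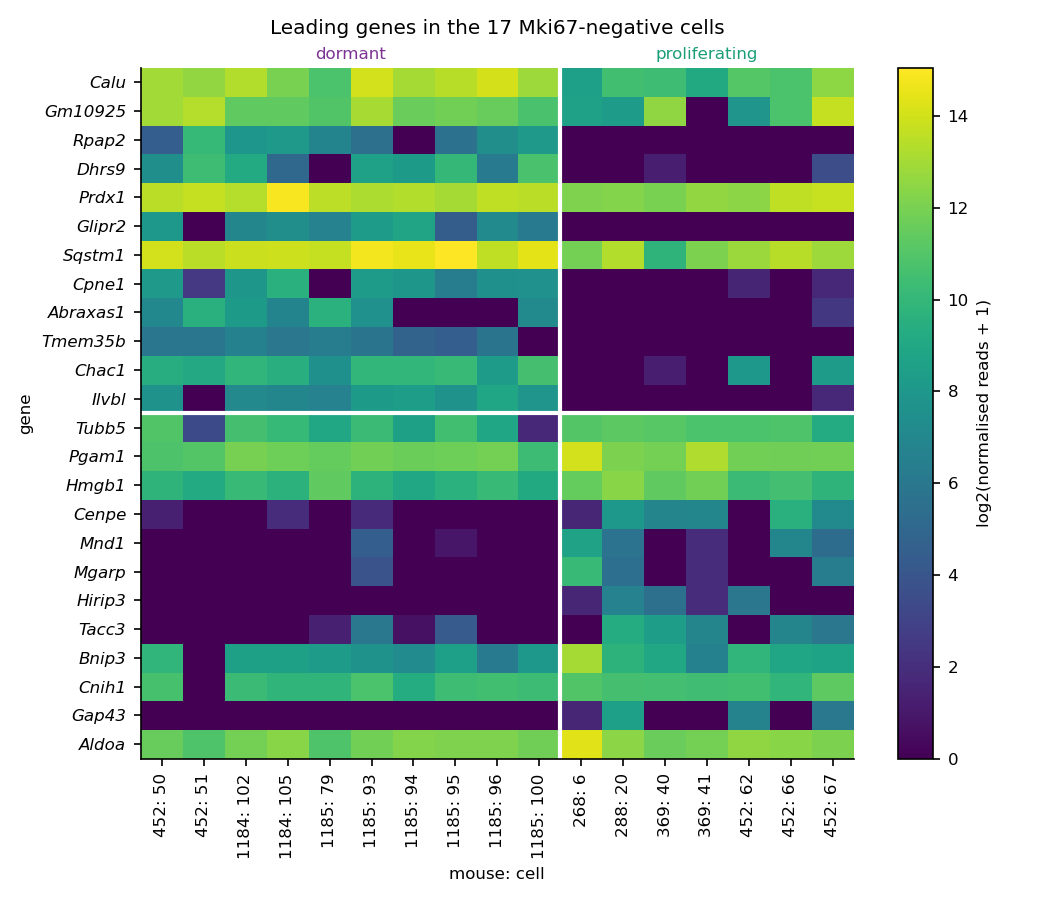
Log2(normalised reads + 1) of the 12 higher (top) and 12 lower (bottom) leading genes in each of the 17 Mki67-negative cells, ordered by state, mouse and cell. Calu, Prdx1 and Sqstm1 were above 0 in all cells and differed in level, while Rpap2, Glipr2 and Tmem35b were at 0 in all 7 proliferating cells.

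Genes of the integrated stress response, in which ATF4 drives transcripts for amino acid supply and for its own feedback, differed among themselves, with Chac1, Trib3 and Asns above 0 in all 10 dormant cells and Sesn2 in 8. Chac1, a glutathione-degrading enzyme gene (chromosome 2, 119351229 to 119354381), was at 189 to 1589 (median 825) in dormant cells. In proliferating cells it was at 0 in 4 of 7, at 1.39 in cell 40, and at 265 and 315 in cells 62 and 67 of mouse 452. The difference was 7.93 (SE 2.32, limma adjusted p = 0.521). The values of cells 62 and 67 lay above that of dormant cell 79. Trib3, a pseudokinase gene of the same response (chromosome 2, 152337422 to 152344032), was at 443 to 2277 (median 1064) in dormant cells and at 0 in 4 of 7 proliferating cells, with 1027 in cell 20 and 420 in cell 67. It differed by 6.46 (SE 2.44), and by 6.96 within mouse 452. Asns, the asparagine synthetase gene (chromosome 6, 7675169 to 7693254), was at 2363 to 7115 (median 3388) in dormant and 358 to 3819 (median 1776) in proliferating cells, a difference of 1.61 (SE 0.65). Sesn2, a stress-induced regulator of growth signalling, was above 0 in 8 of 10 dormant cells (up to 369) and in 1 of 7 proliferating cells (115). Atf4 itself was at 1404 to 5039 (median 2376) in dormant and 597 to 2631 (median 644) in proliferating cells, a difference of 1.42 (SE 0.74, limma adjusted p = 0.543). Of the 26 tested genes of the list, 23 had a positive difference and 4 were higher at an unadjusted p under 0.05 (15.4% against 9.30% of all genes), with a median of 1.78 beside 1.20. Relative to all genes the median was 0.58, and it stayed above 0 in every alternative that was run, from 0.11 to 1.80.

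The promoters of these genes are printed because Chac1, Trib3 and Asns, the first 3 genes of the list by p, each hold the core of the C/EBP-ATF element, TGATGNAA, in the 300 bases around the start. It was searched on both strands as the only motif and is shown in capitals. The sequences are from RefSeq (GRCm38.p6), run from 250 bases before to 50 after the start, and read 5′ to 3′ on the strand of the gene.
Chac1 promoter, chr2:119350992-119351291, plus strand: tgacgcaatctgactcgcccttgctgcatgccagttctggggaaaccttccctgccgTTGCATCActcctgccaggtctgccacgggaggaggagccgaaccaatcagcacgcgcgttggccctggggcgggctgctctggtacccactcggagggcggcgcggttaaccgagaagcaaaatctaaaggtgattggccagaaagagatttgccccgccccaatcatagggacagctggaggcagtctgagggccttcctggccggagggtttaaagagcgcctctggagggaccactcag
Trib3 promoter, chr2:152344011-152344310, minus strand: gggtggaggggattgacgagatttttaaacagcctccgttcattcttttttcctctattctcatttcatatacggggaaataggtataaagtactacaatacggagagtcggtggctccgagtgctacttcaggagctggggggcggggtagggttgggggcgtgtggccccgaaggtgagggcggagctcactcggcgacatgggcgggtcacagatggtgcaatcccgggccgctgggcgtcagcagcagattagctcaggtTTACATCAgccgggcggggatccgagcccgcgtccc
Asns promoter, chr6:7693160-7693459, minus strand: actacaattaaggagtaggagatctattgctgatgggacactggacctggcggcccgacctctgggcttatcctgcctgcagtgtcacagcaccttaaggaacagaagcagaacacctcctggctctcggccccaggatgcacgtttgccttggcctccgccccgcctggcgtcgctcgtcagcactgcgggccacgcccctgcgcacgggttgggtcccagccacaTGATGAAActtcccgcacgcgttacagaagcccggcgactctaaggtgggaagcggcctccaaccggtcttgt
The element was found in 6 of 25 matched genes of the list (24.0%; the other 3 are Atf3, Herpud1 and Slc7a11) and in 3.97% of 32851 promoters of the same length. A match describes the letters and not binding. The list was picked as genes of this response, so its share describes the list and not these cells.

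**Figure D4:**
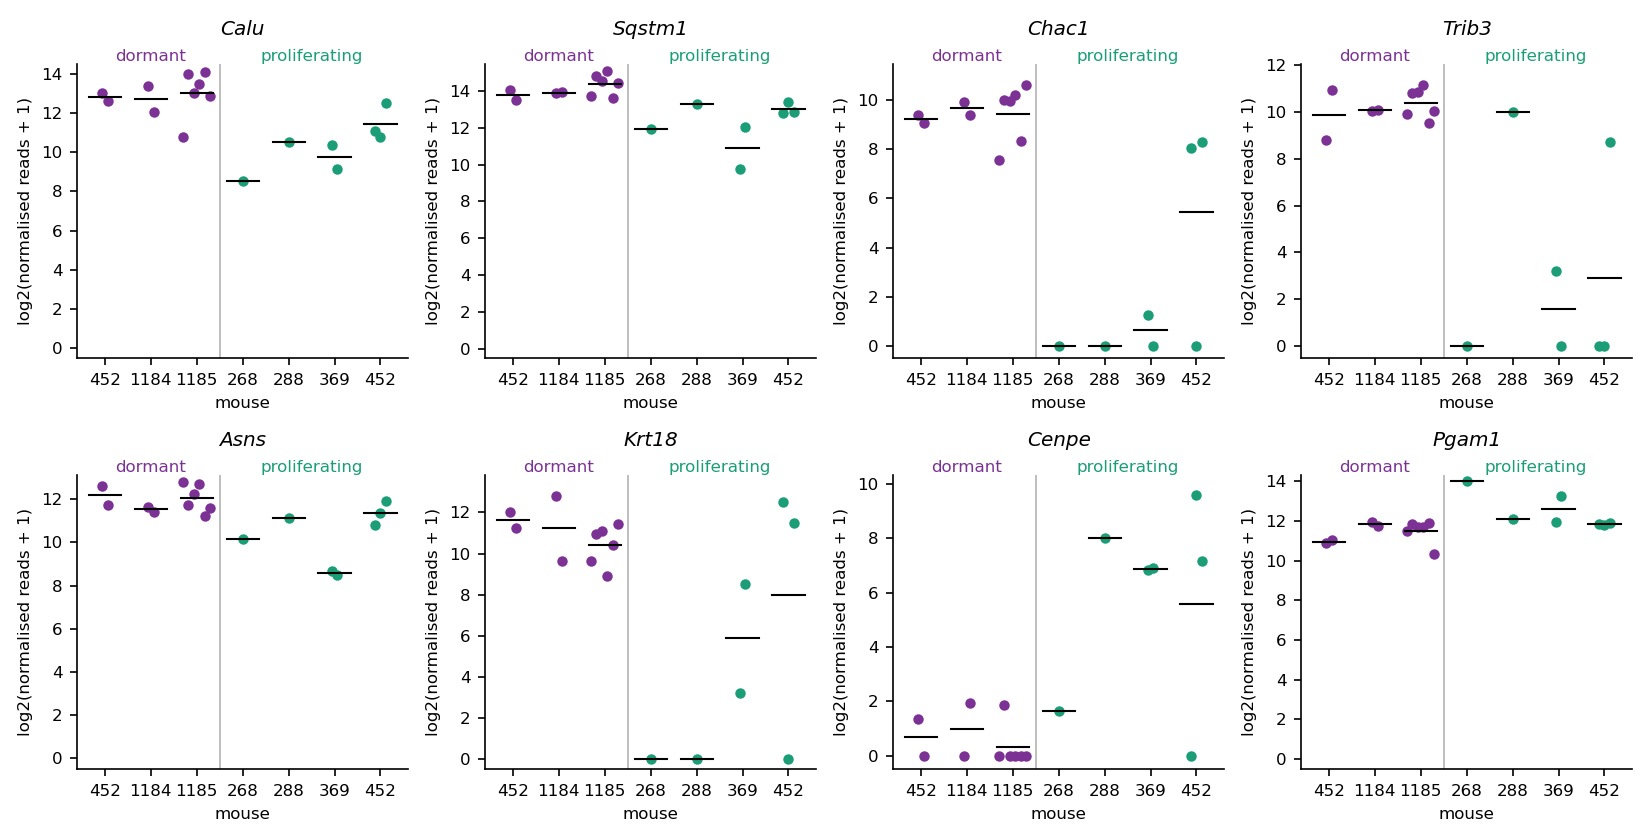
Log2(normalised reads + 1) of 8 genes in each Mki67-negative cell (points) by state and mouse, with the mouse mean as a line. Chac1 and Trib3 are above 0 in all 10 dormant cells and at 0 in 4 of 7 proliferating cells, Cenpe is near 0 in dormant cells, and the values of Pgam1 overlap.

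Of 26 tested extracellular matrix and adhesion genes 22 lay above the median difference of all genes, as did 7 of 14 tested keratin, epithelial and mesenchymal genes. Krt18, the keratin partner of Krt8 (chromosome 15, 102028180 to 102032027), was above 0 in 10 of 10 dormant cells (481 to 7215, median 2101). In proliferating cells it was at 0 in cells 6, 20 and 66, at 8.35 in cell 40, at 364 in cell 41, and at 5834 and 2853 in cells 62 and 67. The difference was 7.62 (SE 2.33, limma adjusted p = 0.521), and 1.70 to 9.58 over the alternatives that were run. In mouse 452 dormant cells 50 and 51 had 4144 and 2425, so that of its proliferating cells only cell 66 lay below both. Krt8 differed by only 0.99 (SE 0.65), and by −0.40 without the 3 cells with high spike-in counts. All 26 tested extracellular matrix and adhesion genes had a positive difference, with a median of 2.72, and 6 were higher at an unadjusted p under 0.05 (23.1%). Itga6 (integrin alpha 6) was at 1.59 to 2029 (median 951) in dormant cells and at 0 in 4 of 7 proliferating cells, a difference of 6.43 (SE 2.33). Fn1 (fibronectin) was at 55.6 to 6862 (median 3217) in dormant and 0 to 2436 (median 272) in proliferating cells, a difference of 5.09 (SE 2.02). Sparc, a secreted matrix protein gene of bone and tumour cells, was at 339 to 15753 (median 4053) in dormant and 0 to 4873 (median 879) in proliferating cells. Timp2, a metalloproteinase inhibitor gene, differed by 2.13 (SE 0.89). Within mouse 452 the matrix list turned, with a median of −0.66 beside −0.13 over all genes. There Fn1 differed by −1.09, Sparc by −0.71 and Timp2 by −0.16. Dormant cells 50 and 51, the latter with few genes detected, had Fn1 at 3218 and 55.6, Sparc at 3490 and 625, and Timp2 at 1631 and 3140. Proliferating cells 62, 66 and 67 had 517, 588 and 2436 for Fn1. For Sparc they had 3299, 879 and 4873, and for Timp2 3308, 2082 and 2349. Without mouse 268 Sparc differed by 2.73 and Fn1 by 3.28.

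Genes of the TGF-beta and TAM families, tied to dormancy in disseminated tumour cells, gave mostly positive differences. Tgfbr2, the type II TGF-beta receptor gene, was above 0 in 8 of 10 dormant cells (up to 809) and in 0 of 7 proliferating cells, a difference of 5.14 (SE 1.61, limma adjusted p = 0.521). Mertk, a TAM receptor gene, was above 0 in 7 dormant cells and in 1 proliferating cell (32.6). Its highest dormant value, 266, was that of cell 105, which is rich in myeloid transcripts, and the next was 104, in cell 93. In dormant cells 96 and 100 Mertk was at 1.07. Bhlhe41, a transcriptional repressor gene, was above 0 in 4 dormant cells and 0 proliferating cells. Thbs1 (thrombospondin 1), an activator of TGF-beta, differed by 5.22 (SE 1.99). Axl was at 7.94 to 3172 (median 1736) in dormant and 0 to 931 (median 72.7) in proliferating cells, a difference of 3.49 (SE 2.15), and 0.13 with the number of genes detected as a covariate. The ligand genes Gas6 and Tgfb2 were at 0 in most dormant and all proliferating cells. Gas6 was at 302 in dormant cell 105, rich in myeloid transcripts, and at 0.628 in cell 94. Tgfb2 was at 18.7, 0.913 and 1.07 in dormant cells 93, 95 and 96. Of 26 genes on this list 24 had a positive difference, with a median of 2.10, and 5 were higher at an unadjusted p under 0.05 (19.2%). Without the 3 cells with high spike-in counts the list's median lay 0.05 above that of all genes, against 0.90 with them.

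Lysosome and autophagy genes gave a median of 2.29 over 37 genes, with 35 positive and 7 higher at an unadjusted p under 0.05 (18.9%). Within mouse 452 the list turned, with a median of −1.05 beside −0.13 over all genes. Besides Sqstm1, Lamp1, a lysosomal membrane protein gene, was at 1416 to 7867 (median 6709) in dormant cells. Lamp1 was at 1225 to 1453 in the 4 proliferating cells of mice 268, 288 and 369, and at 5714 to 7195 in the 3 of mouse 452, a difference of 1.52 (SE 0.54) and −0.42 within mouse 452. Hexa, a lysosomal hexosaminidase gene, was above 0 in 10 dormant cells (370 to 4726) and in 4 of 7 proliferating cells (835 to 1527). Atp6ap1, an accessory subunit gene of the proton pump, differed by 5.43 (SE 2.46), and by −2.84 within mouse 452. There it was at 285 and 0 in dormant cells 50 and 51, the latter with few genes detected. Proliferating cells 62, 66 and 67 had 602, 1.10 and 1387. Cd63, a tetraspanin gene of late endosomes, differed by 1.49 (SE 0.47).

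Mitochondrially encoded transcripts separated the proliferating cells from each other. mt-Co1, a subunit of cytochrome oxidase, was at 5283 to 101801 (median 34236) in dormant cells. It was at 719 to 2142 in proliferating cells 6, 20, 41 and 62, and at 11911 to 133394 in cells 40, 66 and 67, of which 40 and 66 lay within the dormant range and 67 above it. The difference was 3.61 (SE 1.34, limma adjusted p = 0.525). mt-Nd4 and mt-Cytb differed by 5.06 (SE 2.15) and 2.90 (SE 1.22). Of the 13 genes 12 had a positive difference, with a median of 3.43, and 1 (7.69%) was higher at an unadjusted p under 0.05. Relative to all genes the median was 2.23, and 0.25 without the 3 cells with high spike-in counts. The 59 nuclear-encoded respiratory chain genes had a median of 0.40, below that of all genes, with 39 positive.

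Glycolysis genes were prominent among the lower values. Of 24 tested glycolysis and hypoxia genes 16 had a negative difference, with a median of −0.77, and 4 were lower at an unadjusted p under 0.05 (16.7% against 0.188% of all genes). Pgam1 (phosphoglycerate mutase) was at 1283 to 3954 (median 3302) in dormant and 3571 to 16738 (median 3916) in proliferating cells, a difference of −1.21 (SE 0.46, limma adjusted p = 0.521). Aldoa (aldolase A) differed by −0.98 (SE 0.46), Ldha (lactate dehydrogenase A) by −0.80 (SE 0.39) and Bnip3, a hypoxia-induced mitophagy gene, by −2.89 (SE 1.35). The highest Pgam1, Aldoa and Bnip3 values were those of proliferating cell 6 (16738, 21066 and 8283), which also had Gapdh at 91617 against 7935 to 22148 in dormant cells. Without this cell, which alone represents mouse 268, the differences were −0.74 for Pgam1, −0.43 for Aldoa, −1.86 for Bnip3 and −0.64 for Ldha. Relative to all genes the list's median stayed below 0 in every alternative that was run, from −3.27 to −0.42.

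Of the other lower genes, Tubb5, a beta-tubulin gene, was at 2.13 to 2016 (median 782) in dormant and 609 to 2483 (median 1928) in proliferating cells, a difference of −2.34 (SE 0.89), and −1.08 without dormant cell 51. Hmgb1, a chromatin protein gene, was at 500 to 2706 (median 826) in dormant and 902 to 5274 (median 2664) in proliferating cells, a difference of −1.69 (SE 0.68). Both have near-identical copies elsewhere in the genome, as do Gapdh, Aldoa and the ribosomal protein genes, so that their reads may be shared. Hirip3 and Gap43 (a growth cone protein gene) were at 0 in all 10 dormant cells and above 0 in 5 and 4 proliferating cells (up to 103 and 358). Mnd1, a meiotic recombination gene, and Mgarp were above 0 in 2 and 1 dormant cells and in 5 and 4 proliferating cells. Cnih1, a gene of secretory cargo transport, differed by −2.14 (SE 1.00), and by −0.35 without dormant cell 51, where it was at 0. All 79 cytosolic ribosomal protein genes were above 0 in every cell, and all lay below the median of all genes, which mixes level and detection. Of these genes 73 had a negative difference, with a median of −0.32 and 0 past an unadjusted p of 0.05, and Rpl32 differed by −0.80 (SE 0.49). Within mouse 452 the ribosomal list turned, with a median of 0.054 beside −0.13 over all genes.

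Genes of cell cycle arrest differed little beyond the background. Of 27 CDK inhibitor and quiescence genes 20 had a positive difference, with a median of 0.91, below that of all genes, and 1 was higher at an unadjusted p under 0.05 (3.70%). That gene was Rbl2, of the p130 pocket protein, above 0 in 4 of 10 dormant cells (up to 67.5) and in 0 of 7 proliferating cells. The CDK inhibitor genes of the preset group overlapped between the states. Cdkn1a was at 1.59 to 752 in dormant and 2.10 to 1023 in proliferating cells. Cdkn1b was at 0 to 26.1 in dormant and 0 to 49.9 in proliferating cells. Of 21 p53 targets 15 were positive, with a median of 1.15 and 3 higher at that limit (14.3%), led by Rrm2b, a ribonucleotide reductase subunit gene, above 0 in 7 dormant cells (up to 331) and in 0 proliferating cells. Myc was at 24.1 to 765 (median 242) in dormant cells and at 0 in 3 of 7 proliferating cells, a difference of 5.49 (SE 2.27), and −0.054 within mouse 452. The 30 type I interferon response genes had a median of 0.60, with 19 positive and 1 higher at that limit (3.33%).

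Myeloid transcripts were high in dormant cell 105 and B lymphocyte transcripts in proliferating cell 66, and their part in the other differences was not tested. The 15 tested pan-leukocyte genes had a median of 1.61 and the 13 monocyte and macrophage genes 2.36, with 4 (26.7%) and 5 (38.5%) higher at an unadjusted p under 0.05. Tyrobp, an adaptor gene of myeloid receptors, was at 4751 in dormant cell 105, at 0 to 42.8 in the other dormant cells and at 0 to 6.52 in proliferating cells. C1qc was at 2828 in cell 105 and at most 2.68 in the other dormant cells, and the chemokine genes Ccl3 and Ccl4 were at 1075 and 2912 in cell 105 and at most 10.7 and 8.03 in the others. Lyz2 was at 95205 in cell 105, at 0 to 477 in the other dormant cells and at 0 to 32.6 in proliferating cells. Summed over the 24 pan-leukocyte genes, values ranged from 1184 to 21551 in dormant and from 878 to 10059 in proliferating cells. Without cell 105 the medians relative to all genes were −1.12 for pan-leukocyte and −0.66 for monocyte and macrophage genes, against 0.41 and 1.16 with it. The integrated stress response, matrix and lysosome lists were at 0.73, 2.27 and 1.12 relative to all genes without cell 105, against 0.58, 1.52 and 1.09 with it. Without proliferating cell 66 they were at 0.61, 1.18 and 0.91, and 0 genes were called, with 850 higher and 24 lower before adjustment (limma).

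The same contrast among Mki67-positive cells (4 dormant and 5 proliferating mouse means) gave negative medians for the 7 lists below, beside −0.48 over all genes, while the pan-leukocyte and monocyte and macrophage lists had 1.17 and 1.59. The integrated stress response list had −0.09, the matrix list −1.09, the lysosome list −0.04, the mitochondrially encoded list −1.40 and the TGF-beta and TAM list −0.65, against 1.78, 2.72, 2.29, 3.43 and 2.10 in Mki67-negative cells. Glycolysis genes had −0.21 against −0.77. Mitotic genes were at −2.04 in Mki67-positive cells, against −1.07 in Mki67-negative cells. The difference of the 2 contrasts was tested over 11595 genes, of which 0 (0%) passed an adjusted p of 0.05 by limma. At an unadjusted p under 0.05, 1225 were positive and 8 negative, and the median was 1.58. The smallest adjusted p, 0.129, belonged to Dhrs9, with a difference of differences of 11.41 (SE 2.05). With the mouse as replicate block the smallest limma adjusted p over all genes was 0.565. For Calu it was 3.41 (SE 1.08, limma adjusted p = 0.435), for Chac1 6.93 (SE 3.17, limma adjusted p = 0.456) and for Krt18 7.03 (SE 2.05, limma adjusted p = 0.435). Cenpe differed by −4.70 in Mki67-positive and −4.88 in Mki67-negative cells, with a difference of differences of −0.18 (SE 2.41). The dormant Mki67-positive mean of mouse 452 was cell 52 alone, with Mki67 at 0.860 from 1 read. Its mean over the G2/M genes, 2.02, lay within the range of dormant Mki67-negative cells. Without this mean, 824 differences of differences were positive and 14 negative at an unadjusted limma p under 0.05, with a median of 1.29 over all genes.

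**Figure D5:**
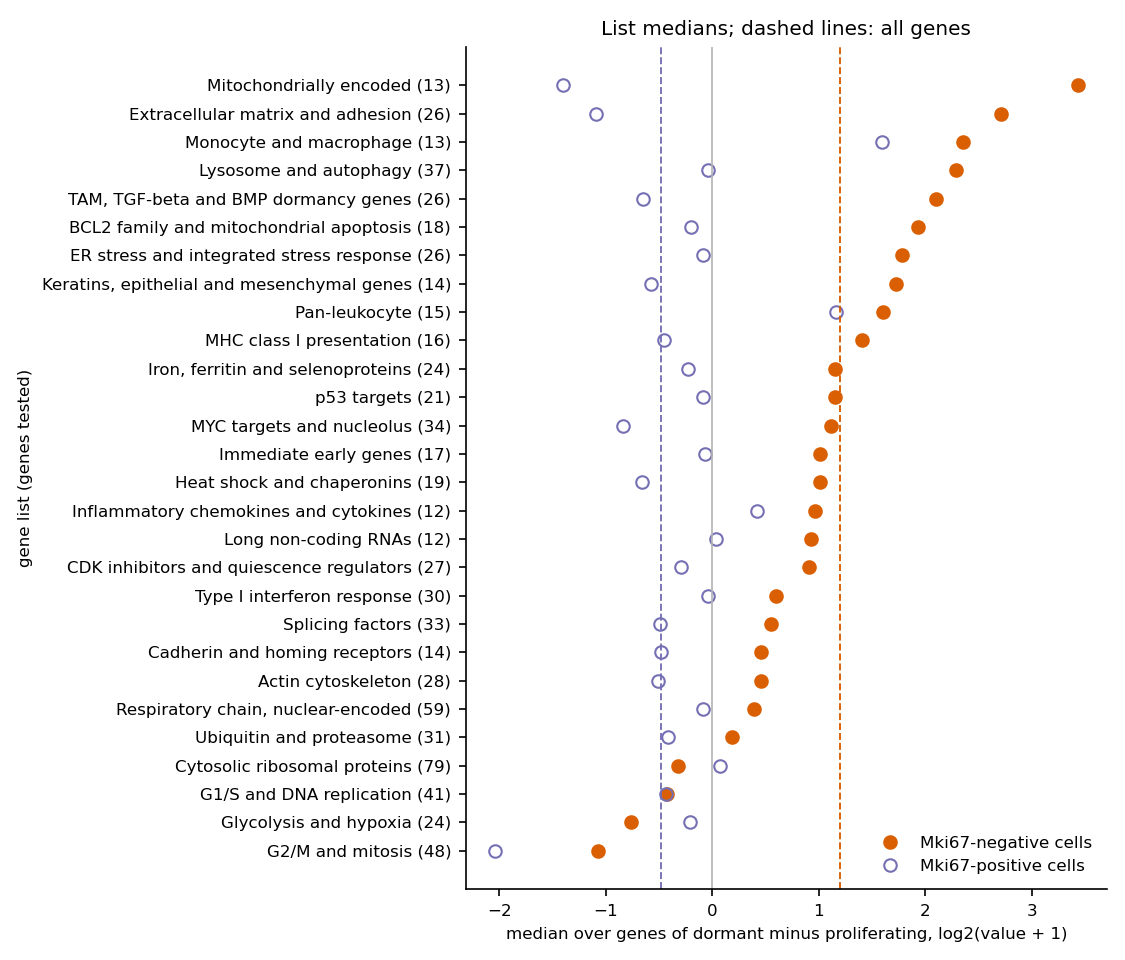
Median over genes of the dormant minus proliferating difference, log2(value + 1), for each list with at least 10 tested genes in Mki67-negative (filled) and Mki67-positive cells (open), with the medians of all genes, 1.20 and −0.48, as dashed lines. The matrix and mitochondrially encoded lists lie far right in Mki67-negative cells and left of the line in Mki67-positive cells, and the G2/M list is leftmost in both.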

How the data were processed

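Single RM1 cells were profiled with SMARTer cDNA, Nextera XT libraries and ERCC spike-ins, per the labels' protocols. STAR, RSEM, GRCm38 and mm10 are named, without versions or roles, in the submitters' processing notes. The deposited values are a signal, reads per gene and cell that the authors normalised with BASiCS, per the series text. In every cell the nonzero gene values were integer multiples of a step particular to that cell (100% of values, tolerance 0.01), which gave back whole reads.

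The members and the 35 gene lists were chosen with earlier results of these data known. The mouse was the replicate, and log2(value + 1) was averaged per mouse within each state and fitted with limma (3.58.1, trend and robust moderation, no block) over genes above 0 in at least 3 of the 17 cells, with Benjamini-Hochberg adjustment at 0.05. The pseudocount of 1 understates changes of low genes. The second fit took 4 groups (state by Mki67) over 51 labelled cells, with genes above 0 in at least 6. P-values measure the spread between mouse means, several of which rest on 1 cell. Mouse 452 entered both groups of the first fit and all 4 of the second, where several other mice also entered more than 1. These means were treated as independent. No 2 cells correlated above 0.891. No gene passed, so genes were named by rank of unadjusted p, 12 in each direction, among those with the same sign in mouse 452 and found in most cells of the state where they were higher (a share of at least 0.5). Up to 4 members of each described list, again by p, and a preset group of marker genes were added, not all of which are reported. Ccnb2, Gapdh, Sparc and Atf4 were added after their values were seen. Spike-in rows were left out of tests.

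edgeR (4.0.16) and DESeq2 (1.42.0), run on sums of recovered reads for each mouse and state, were alternatives, and other alternatives changed the pseudocount, filter, averaging, weights, scaling, cells and mice. Scripts were tested on simulated data. Gene positions are those of GENCODE on GRCm38. Tables were handled in pandas 2.3.3 under Python 3.11.15, exact tests ran in scipy 1.17.1, models in R 4.3.3, and plots in matplotlib 3.10.9.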

Additional observations from a re-analysis of the deposited data

Results flagged for a closer look

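Of 89 groups of values, 16 held a sample whose gap to the rest passed Dixon's limit, where chance passes about 1 in 20. In proliferating cells the mean of mouse 452 stood above the other 3 mice on the log2(value + 1) scale, at 13.30 for Prdx1, 12.69 for Lamp1, 6.89 for Myc, 5.45 for Chac1, 3.42 for Thbs1, 2.29 for Sesn2 and 1.69 for Mertk. The same mouse stood above the others near 0, at 1.07 for Cpne1, 0.97 for Tyrobp, 0.81 for Abraxas1, 0.56 for Ilvbl and 0.36 for Ccl4. For these 5 genes and for Thbs1, Sesn2 and Mertk the other 3 mice were all at 0. Any mean above 0 then passes the limit, so the rate of 1 in 20 does not apply to them. Mouse 452 alone holds Mki67-negative cells of both states. For Anln the mean of mouse 288, from 1 cell, stood above the others at 9.41. Dormant cell 51 had 2982 genes above 0, far below the other dormant cells. Dormant cell 105 had 24 pan-leukocyte genes above 0 and proliferating cell 66 had 9, each above the rest of its state.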

How the results depend on the processing

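No paired analysis was possible because mouse 452 alone holds Mki67-negative cells of both states, which leaves no residual degrees of freedom. In the difference of the 2 contrasts, the mouse as replicate block called 0 genes, with 994 positive and 22 negative at an unadjusted p under 0.05. The alternative with Mki67, Top2a, Cdk1 and Ccnb1 all at 0 left no cells. Settings with under 40 spike-in rows, within mouse 452, without cells 105, 51 or 66, and the joint leukocyte and detection limit were chosen after seeing the data. The stricter filter kept genes above 0 in at least a share of 0.5 of the cells. The causes of the changes below were not tested.

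DESeq2 called 145 genes, the stricter filter 1 (Calu), cells under 40 spike-in rows 4 (Calu, Cav1, mt-Co2, Sqstm1), cells without 105 1 (Calu), and leaving out a mouse 0 to 4, with 4 (Calu, Cd63, mt-Cytb, Sqstm1) without proliferating mouse 288. At an unadjusted p under 0.05 higher genes numbered 522 with the stricter filter, 391 with the detection covariate, 217 in the table of 4 mice, 1486 without cell 51, and 402 to 1563 when a mouse was left out, from 402 without dormant mouse 1185 to 1563 without dormant mouse 452. Lower genes numbered 8 with a pseudocount of 10, 11 without a filter, 13 with the stricter filter, 10 for the log of the mean, 49 with equal totals, 199 with the covariate, 47 in the table of 4 mice, 48 at eCFP of at least 1000, 44 with at least 5000 genes, 12 with fewer than 5 pan-leukocyte genes, 35 with both limits, 54 with edgeR, 73 with DESeq2, 47 under 40 spike-in rows, 12 without cell 51, and 7 to 66 when a mouse was left out, with 66 without proliferating mouse 268. In the difference of contrasts, fewer than 5 pan-leukocyte genes gave 650 positive and 15 negative genes. Leaving out a mouse gave 0 to 1 called (Dhrs9, without proliferating Mki67-positive mouse 369), 673 to 1683 positive and 3 to 23 negative.

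Of 66 named genes, 24 had been chosen for their sign within mouse 452, so that alternative tests nothing for them. Of the other 42, 27 kept their sign in each of the alternatives run. Within mouse 452 the dormant side was cells 50 and 51, the latter with the fewest genes of the dormant cells. There the sign turned for Fn1 (−1.09), Timp2 (−0.16), Sparc (−0.71), Lamp1 (−0.42), Hexa (−1.0), Atp6ap1 (−2.84), Top2a (2.61), Ccnb2 (3.43), Birc5 (0.67), Myc (−0.054) and Luc2 (−0.35). Under 40 spike-in rows it turned for Krt8 (−0.40), Top2a (2.77), Ccnb2 (1.61) and Birc5 (0.68), and at eCFP of at least 1000 for Top2a (2.59), Ccnb1 (0.71), Ccnb2 (2.46) and Birc5 (1.00). Top2a was at 1.77 for the log of the mean, 0.23 without cell 51, and between −2.52 and 0.42 when a mouse was left out, turning without proliferating mice 288 (0.42) and 369 (0.033). Cdk1 was at −0.65 with the covariate, −0.54 with edgeR and −0.55 with DESeq2. Lyz2 was at −0.65 with fewer than 5 pan-leukocyte genes and −0.51 with both limits. Of 15 lists, 3 kept their sign relative to all genes throughout (integrated stress response, glycolysis, and CDK inhibitors from −1.04 to −0.01).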
